A study of Mus musculus with 6 samples.

Results

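The SR proteins and the heterogeneous nuclear ribonucleoproteins (hnRNPs) are the main families of RNA-binding proteins that steer splice site choice in mammalian cells. The genes were taken from the deposited table as the protein-coding genes whose symbols start with Srsf or Hnrn. This rule gave 31 genes of 55471 in the table, 11 SR genes and 20 hnRNP genes, and used no measured value. The samples were total RNA libraries of haematopoietic stem cells, sorted from mice as lineage-negative, Kit+, Sca1+, CD48- and CD150+ cells. All mice carried the genotype ETV6-RUNX1, an inducible form of the fusion of the transcription factor genes ETV6 and RUNX1 that marks a childhood B-cell precursor leukaemia. One group was uninduced (3 libraries), and the other had received doxycycline in food for 2 weeks to induce the fusion (3 libraries). The promoter that drives the fusion, the ages of the mice and the number of mice behind a library are not given in the sources used here, and no label says that the replicates came from separate mice, so p-values measure the spread between these libraries. A doxycycline group that lacks the fusion was not analysed here, so induction and doxycycline itself cannot be told apart.

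SR proteins carry RNA recognition motifs and a tail rich in arginine and serine. They bind exonic enhancers and recruit the U1 and U2 particles of the spliceosome, and their activity is set by phosphorylation of the tail. hnRNPs coat nascent RNA, and many of them bind silencers in exons and introns and oppose SR proteins at the same splice sites. Many genes of both families limit their own output by splicing in exons with premature stop codons, which send the transcript to nonsense-mediated decay. In blood cells they are known for their part in leukaemia and myelodysplasia, where splicing factor genes such as SRSF2 are mutated.

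Values are TPM, a share of each library corrected for gene length, and the sequencing depth is unknown. Levels of different genes are set side by side as listed, with the limits given below for Sf1 and for pseudogene copies. Differences were tested with limma on log2(TPM + 1) over the 13470 genes whose mean reached 1 TPM, and a gene is called when its Benjamini-Hochberg adjusted p over all of them is under 0.05. The median log2 change of all tested genes was -0.35, and nuclear protein-coding genes held 26.6% to 32.9% of the TPM in uninduced and 20.5% to 23.2% in induced libraries. The deposited scale is therefore offset between the groups, and changes are also given after median-of-ratios scaling, which sets the median change to 0.0032. In bulk libraries, fewer cells of a type and less RNA per cell cannot be told apart.

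The sorted population was checked against markers, with a background of 10.2% of all tested genes called lower and 1.29% called higher as deposited, and 3.1% and 2.88% after scaling. All 11 stem cell markers listed, among them Kit, Ly6a, Procr and Hlf, passed the expression minimum. On the deposited scale 4 of them (Ly6a, Procr, Hlf and Mllt3) were called higher and Kit lower, after scaling 6 higher and 0 lower, and their summed level was 520.4 to 656 TPM in uninduced and 697 to 778 TPM in induced libraries. Of 12 B and T lymphoid markers 11 stayed under 1 TPM in every library, with Pax5 and Cd3e among those listed at 0. Markers of proliferation moved with the groups: 18 of 19 were called lower on the deposited scale and 15 after median-of-ratios scaling, and their summed level was 764 to 906 TPM in uninduced and 176 to 228 TPM in induced libraries. Erythroid markers moved the other way, with 7 of 10 tested called higher and 1 lower (7 and 0 after scaling) and a summed level of 397 to 469 and 651 to 755 TPM. Much of that sum was Car2, the marker called lower, at a mean of 384 and 261 TPM, while Hbb-bs went from 15.2 to 178 and Hba-a1 from 12.8 to 98.5 TPM. Of the megakaryocyte and platelet markers, 2 of 6 tested were called higher and 2 lower (2 and 1 after scaling). Their summed levels were 199 to 250.1 TPM uninduced and 170.4 to 179 TPM induced. Of the myeloid markers 1 of 6 tested was called higher and 0 lower (2 and 0 after scaling). Their summed levels were 237 to 284 TPM uninduced and 234 to 285 TPM induced. The endothelial and stromal markers summed to 13.9 to 18.2 and 15.5 to 24.4 TPM, with Lepr and Col1a1 listed at 0. The part of these differences in the results for splicing factors was not tested.

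SR and hnRNP genes mostly had lower values in induced stem cells, with 29 of 30 tested genes below 0 in log2 change on the deposited scale, where all tested genes had a median of -0.35. On the deposited scale 18 of the 30 tested genes fell and 0 rose, against 10.2% of all tested genes that were called lower and 1.29% called higher. After median-of-ratios scaling 8 fell and 0 rose, against 3.1% of all tested genes called lower and 2.88% called higher. These 8 were Srsf3, Srsf7, Hnrnpa1, Hnrnpa2b1, Hnrnpa3, Hnrnpab, Hnrnpd and Hnrnpm, and each of them was also called on the deposited scale, after rescaling to nuclear protein-coding genes (where 4.54% of genes were called lower), and on the deposited scale when any 1 library was left out. Without the variance trend, Hnrnpa1 and Hnrnpa2b1 lost the call on the deposited scale (limma adjusted p 0.0591 and 0.0608). Of the 10 genes called on the deposited scale alone, Srsf6 kept its call when any 1 library was left out. Srsf2 lost it without induced replicate 2 (limma adjusted p 0.0595). Srsf9 lost it without induced replicate 1 or 2 or uninduced replicate 2, and Hnrnpul1 without replicate 1 or 2 of either group (highest limma adjusted p 0.0724 and 0.0595). Hnrnpc, Hnrnpdl, Hnrnpf, Hnrnph1 and Hnrnpl lost it without any library but uninduced replicate 3, and Hnrnpr without any of the 6 (highest limma adjusted p 0.0824, 0.0926, 0.133, 0.0845, 0.144 and 0.157). Of the 12 genes called on neither scale, Hnrnph3 alone had a change above 0 on the deposited scale.

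Of 10 SR genes tested 5 fell, with a median log2 change of -0.81, and of 20 hnRNP genes 13 fell, with a median of -0.75. After scaling 2 SR genes fell, with a median of -0.41, and 6 hnRNP genes, with a median of -0.35. The median over the 30 genes was -0.79, beside -0.35 over all genes, and 27 of the 30 lay below the median of all genes on either scale. Groups did not overlap for 23 of the 30 genes on the deposited scale, all lower, where 28.2% of all tested genes were lower without overlap and 4.83% higher. After scaling this held for 16 genes, where the background was 14.3%, and for 1 gene, Hnrnph3, in the other direction, where the background was 13.6%. SR and hnRNP genes are abundant, and abundant genes were called more often. Among protein-coding genes that averaged 20 TPM or more, a level chosen after the values were seen, 22.5% were called lower on the deposited scale and 7.04% after scaling. The SR and hnRNP genes at that level numbered 26, of which 17 and 7 were called lower.

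**Figure D1:**
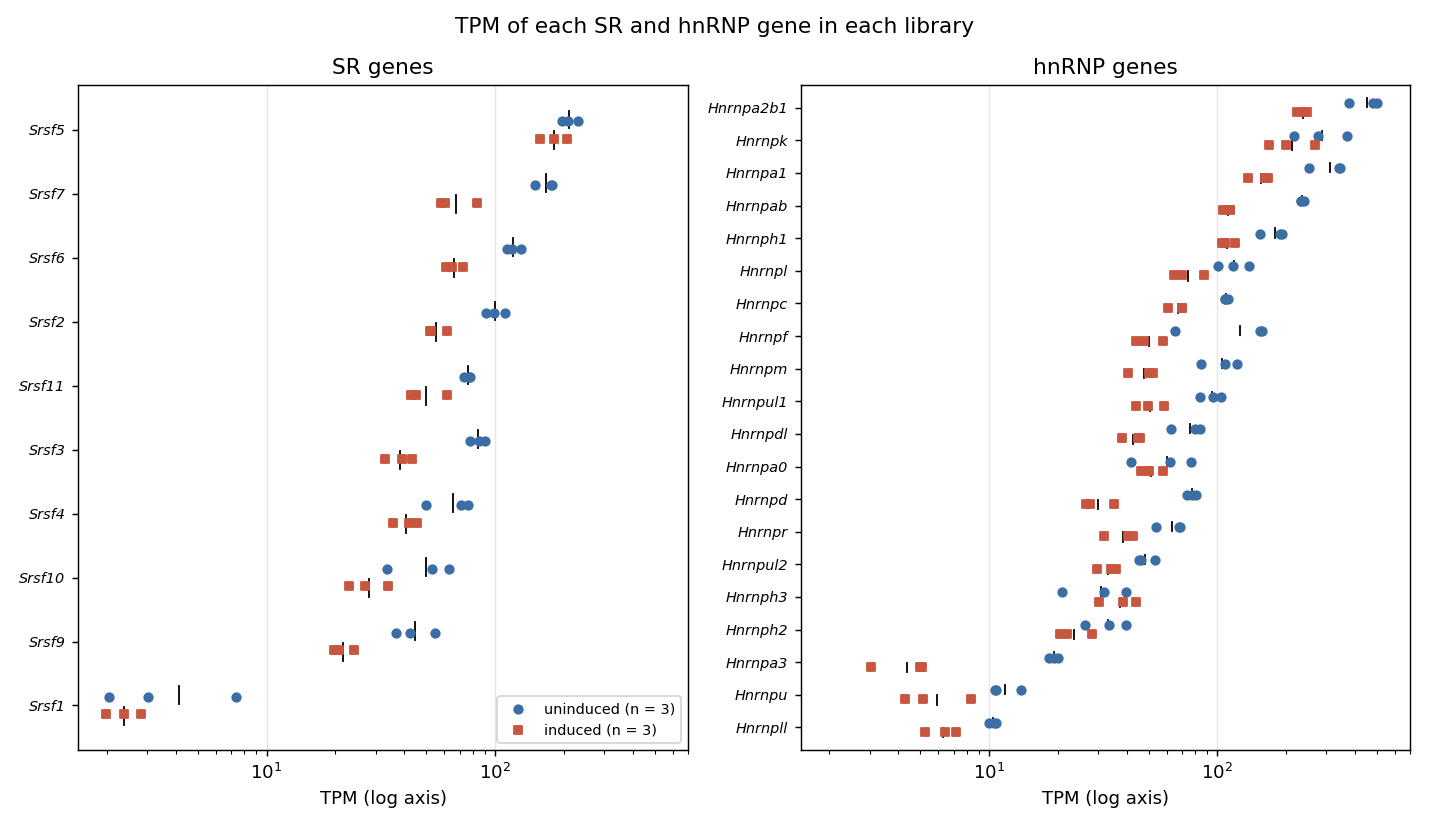
TPM (log axis) of the 10 SR and 20 hnRNP genes tested, with 3 uninduced libraries as circles, 3 induced libraries as squares and a black line at each group mean. Induced libraries lie below uninduced ones without overlap for 23 of 30 genes; Srsf5, Hnrnpk, Hnrnpa0 and Hnrnph3 are among those that overlap.

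Among the SR genes, Srsf7 (ENSMUSG00000024097, chr17:80200080-80207307, minus strand), whose protein has a zinc knuckle and takes part in splicing and mRNA export, had the largest change. It was listed at 176, 178 and 149.9 TPM without induction and 83.3, 58.1 and 60.7 TPM with it. The highest induced library lay well below the lowest uninduced one, and the change of -1.32 on the log2 scale (SE 0.18, limma adjusted p 0.00366) was -0.91 (limma adjusted p 0.0142) after scaling. Srsf3 (ENSMUSG00000071172, chr17:29032628-29043373, plus strand) encodes the smallest SR protein, an adaptor for mRNA export. Its values were 84.8, 90.5 and 77.5 TPM without induction and 43.2, 33.1 and 39.3 TPM with it. The groups did not overlap, with a change of -1.12 on the log2 scale (SE 0.18, limma adjusted p 0.00553), and the scaled change was -0.71 (limma adjusted p 0.0248).

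Srsf2, Srsf6 and Srsf9 fell on the deposited scale and were not called after scaling. Srsf2, which binds exonic enhancers and is mutated in myelodysplasia, was at 99.4, 110.1 and 91.1 TPM without induction and 61.5, 52.4 and 52.0 TPM with it, a change of -0.85 on the log2 scale (SE 0.17, limma adjusted p 0.0132) that was -0.44 (limma adjusted p 0.107) after scaling. Srsf6, another enhancer-binding SR protein gene, was at 112, 130.2 and 119 TPM without induction and 61.0, 65.1 and 72.3 TPM with it, a change of -0.86 on the log2 scale (SE 0.16, limma adjusted p 0.0102), or -0.45 (limma adjusted p 0.0917) after scaling. The values of Srsf9, a close relative of Srsf1, were 36.8, 54.7 and 42.5 TPM without induction and 19.8, 20.7 and 24.1 TPM with it, a change of -1.004 on the log2 scale (SE 0.22, limma adjusted p 0.0187) that was -0.61 (limma adjusted p 0.101) after scaling. For these 3 genes every induced library was below every uninduced library on both scales.

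Srsf5 had the most abundant gene row of the SR genes as listed and was called on neither scale. Its values were 196, 230.2 and 208 TPM without induction and 157, 181 and 207 TPM with it. The groups overlapped, and the change of -0.22 on the log2 scale (SE 0.16, limma adjusted p 0.391) changed sign to 0.18 (limma adjusted p 0.484) after scaling. Srsf4, Srsf10 and Srsf11 were not called on either scale, with log2 changes of -0.65, -0.78 and -0.62 (limma adjusted p 0.0773, 0.0851 and 0.0619), which were -0.25, -0.38 and -0.22 after scaling. Srsf1, the founding member of the family, was listed at only 2.05, 7.37 and 3.02 TPM without induction and 2.81, 2.37 and 1.98 TPM with it. The groups overlapped, with a limma adjusted p of 0.522 and a scaled change of -0.17. Srsf12 was below the expression minimum. It was listed at 0 in 4 libraries, at 0.753 TPM in uninduced replicate 3 and at 0.065 TPM in induced replicate 2.

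Each gene's share of the summed Srsf TPM is a quantity that no scaling of a library moves, and the shares of Srsf5, Srsf7 and Srsf3 differed between the groups without overlap. The share of Srsf5 was 21.7, 22.6 and 24.4% in the uninduced and 27.8, 34.9 and 36.3% in the induced libraries. The share of Srsf7 was 19.5, 17.5 and 17.6% in the uninduced and 14.7, 11.2 and 10.6% in the induced libraries. Srsf3 went from 9.12% ± 0.243 to 6.96% ± 0.627 (SD, n = 3 each). Srsf5 took a larger and Srsf7 and Srsf3 a smaller part in every induced library, and the shares of the other 8 SR genes overlapped. The ratio of Srsf5 to Srsf7, chosen after the values were seen, was 1.11, 1.29 and 1.39 in the uninduced and 1.89, 3.11 and 3.42 in the induced libraries. Among the hnRNP genes the shares of Hnrnpa1, Hnrnpa2b1, Hnrnpa3, Hnrnpab, Hnrnpd and Hnrnpm were lower and those of Hnrnpa0, Hnrnph3 and Hnrnpul2 higher in every induced library. Shares are given as descriptions and were not tested. Those of a family add up to the whole, so a fall of some raises others, and such counts have no background over all genes. The genes named with lower shares are those called after scaling. Shares rest on the gene rows as listed, without pseudogene copies and with an uncertain level of Srsf1, as given below.

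**Figure D2:**
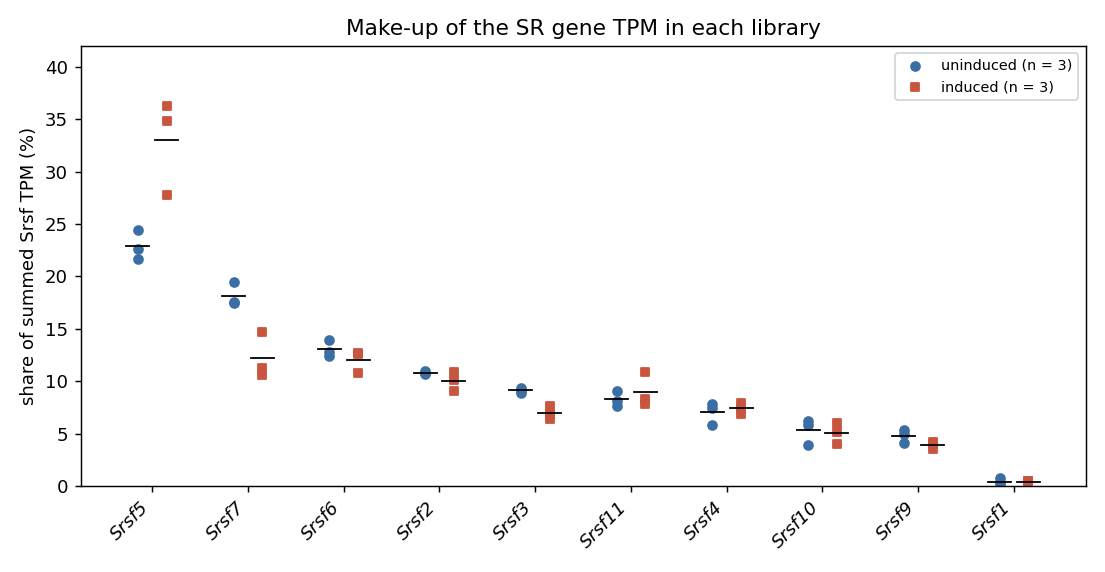
Share of the summed Srsf TPM (%) held by each of 10 SR genes, with 3 uninduced libraries as circles, 3 induced libraries as squares and a line at each mean. Srsf5 holds 21.7% to 24.4% in uninduced and 27.8% to 36.3% in induced libraries, while Srsf7 holds less in every induced library. Srsf12, under 0.1% in all libraries, is left out.

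The hnRNPs of the A/B and D type, RNA-binding proteins built from a pair of RNA recognition motifs and a glycine-rich tail, included 5 of the 8 genes called on both scales. Hnrnpa2b1 (ENSMUSG00000004980, chr6:51460932-51469894, minus strand), which also sorts RNAs for transport, had the most abundant gene row of either family. It was listed at 477, 500.3 and 378 TPM without induction and 239, 222 and 246 TPM with it. The change of -0.93 on the log2 scale (SE 0.15, limma adjusted p 0.00551) was -0.52 (limma adjusted p 0.0193) after scaling. Hnrnpa1 (ENSMUSG00000046434, chr15:103240432-103246692, plus strand), the classical antagonist of SR proteins at 5′ splice sites, was at 339, 345 and 251 TPM without induction and 162, 135 and 166 TPM with it. Its change of -0.999 on the log2 scale (SE 0.17, limma adjusted p 0.00684) became -0.59 (limma adjusted p 0.0212) after scaling. In both genes the groups were far apart, and uninduced replicate 3 was the lowest of its group.

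Hnrnpab (ENSMUSG00000020358, chr11:51600100-51606847, minus strand) had the tightest replicates, at 239, 233 and 232 TPM without induction and 106, 114 and 113 TPM with it. Its change of -1.07 on the log2 scale (SE 0.14, limma adjusted p 0.00237) was -0.67 (limma adjusted p 0.0182) after scaling. Hnrnpd (ENSMUSG00000000568, chr5:99955935-99978938, minus strand), which binds AU-rich elements and promotes decay of the transcripts that hold them, was at 80.7, 77.7 and 73.5 TPM without induction and 26.6, 27.7 and 35.3 TPM with it. The change of -1.35 on the log2 scale (SE 0.19, limma adjusted p 0.00346) was -0.95 (limma adjusted p 0.0125) after scaling. Its relative Hnrnpdl was at 80.1, 84.2 and 62.6 TPM without induction and 38.1, 44.7 and 45.6 TPM with it, a change of -0.80 on the log2 scale (SE 0.19, limma adjusted p 0.0255) that was -0.40 (limma adjusted p 0.172) after scaling. Hnrnpa3 (ENSMUSG00000059005, chr2:75659261-75669407, plus strand) had the largest change of the 30 gene rows, from 18.2, 20.1 and 19.3 TPM to 3.06, 4.97 and 5.09 TPM. Its change of -1.93 on the log2 scale (SE 0.28, limma adjusted p 0.00408) was -1.57 (limma adjusted p 0.014) after scaling, and with pseudogene copies added it was smaller than those of Hnrnpd and Srsf7. Hnrnpa0, the intronless member of the A/B type, had values of 41.8, 76.5 and 62.0 TPM without induction and 49.99, 46.3 and 57.8 TPM with it. Its groups overlapped, and the change of -0.19 (limma adjusted p 0.646) became 0.21 (limma adjusted p 0.628) after scaling.

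Hnrnpm (ENSMUSG00000059208, chr17:33646233-33686860, minus strand), which binds GU-rich RNA, was the remaining gene called on both scales. It was at 108, 121 and 84.8 TPM without induction and 52.3, 50.1 and 40.6 TPM with it. The change of -1.11 on the log2 scale (SE 0.20, limma adjusted p 0.00766) was -0.71 (limma adjusted p 0.0467) after scaling. The proteins of the F/H type bind runs of guanines, and their genes differed. Hnrnpf was at 157, 153 and 65.4 TPM without induction and 58.1, 44.1 and 47.8 TPM with it. Uninduced replicate 3 lay close to the induced libraries, and the change of -1.21 on the log2 scale (SE 0.31, limma adjusted p 0.0349) was -0.81 (limma adjusted p 0.12) after scaling. Hnrnph1 was at 187, 193 and 154 TPM without induction and 119, 108 and 104 TPM with it. The groups did not overlap, and the change of -0.68 on the log2 scale (SE 0.16, limma adjusted p 0.0233) was -0.27 (limma adjusted p 0.244) after scaling. Hnrnph2 was called on neither scale (log2 change -0.47, limma adjusted p 0.223, scaled change -0.07).

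Hnrnph3, the F/H type member with the fewest RNA recognition motifs, was at 20.9, 39.8 and 31.8 TPM without induction and 38.5, 30.2 and 44.0 TPM with it. Its groups overlapped on the deposited scale, where the change of 0.31 on the log2 scale (SE 0.26, limma adjusted p 0.486) was above 0 and ranged from 0.06 without uninduced replicate 1 to 0.51 without uninduced replicate 2. After scaling the values no longer overlapped, at 17.4, 31.2 and 30.0 in the uninduced and 43.3, 36.6 and 46.7 in the induced libraries, but the change of 0.70 (limma adjusted p 0.133) did not pass. Hnrnph3 and Hnrnpa0 are named here because of their values.

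The other hnRNP genes called on the deposited scale were Hnrnpc, Hnrnpl, Hnrnpr and Hnrnpul1. Hnrnpc, which binds uridine tracts and blocks cryptic exons, was at 107, 112 and 107 TPM without induction and 70.2, 60.8 and 69.9 TPM with it. Its change of -0.69 on the log2 scale (SE 0.16, limma adjusted p 0.0213) was -0.29 (limma adjusted p 0.237) after scaling. Hnrnpl, which binds CA repeats, was at 117, 138 and 100.2 TPM without induction and 87.0, 70.1 and 64.9 TPM with it, a change of -0.67 on the log2 scale (SE 0.19, limma adjusted p 0.0462) that was -0.27 (limma adjusted p 0.379) after scaling. Its relative Hnrnpll, a regulator of CD45 splicing in lymphocytes, was at 10.8, 9.98 and 10.6 TPM without induction and 6.44, 5.26 and 7.18 TPM with it and was not called (limma adjusted p 0.147, scaled change -0.30), although its groups did not overlap.

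Hnrnpr was at 67.8, 53.8 and 68.4 TPM without induction and 42.8, 32.0 and 40.7 TPM with it, a change of -0.71 on the log2 scale (SE 0.20, limma adjusted p 0.0467) that was -0.31 (limma adjusted p 0.408) after scaling. Hnrnpul1, related to Hnrnpu and involved in DNA repair, was at 95.5, 104 and 84.2 TPM without induction and 43.9, 49.9 and 58.4 TPM with it, a change of -0.89 on the log2 scale (SE 0.18, limma adjusted p 0.0146) that was -0.49 (limma adjusted p 0.0882) after scaling. The groups of both genes did not overlap on the deposited scale, while those of Hnrnpl, Hnrnpr and Hnrnpf overlapped after scaling. Hnrnpul2 was not called (log2 change -0.53, limma adjusted p 0.099, scaled change -0.13). Hnrnpk, a protein that binds cytosine-rich RNA and DNA, was at 368, 276 and 216 TPM without induction and 168, 199.7 and 266 TPM with it. The groups overlapped, and its change of -0.43 on the log2 scale (SE 0.23, limma adjusted p 0.249) was -0.02 (limma adjusted p 0.965) after scaling.

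Hnrnpu, which anchors chromatin and non-coding RNA to the nuclear scaffold, was listed at only 10.7, 13.8 and 10.7 TPM without induction and 5.14, 8.37 and 4.29 TPM with it. The groups did not overlap on the deposited scale (limma adjusted p 0.0903) but did after scaling, where the change was -0.54 (limma adjusted p 0.364). The splicing factor gene Sf1, which all cells use, was listed at 0 in all 6 libraries, so a low value in this table need not be a low level, and the levels of Srsf1 and Hnrnpu are uncertain for that reason. The ratio of Srsf1 to Hnrnpa1, a pair that opposes each other at alternative 5′ splice sites, was 0.00605, 0.0213 and 0.0121 in the uninduced and 0.0174, 0.0175 and 0.0119 in the induced libraries. The groups overlapped, with an exact two-sided permutation p of 0.7, where 3 libraries against 3 cannot give a p below 0.1.

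**Figure D3:**
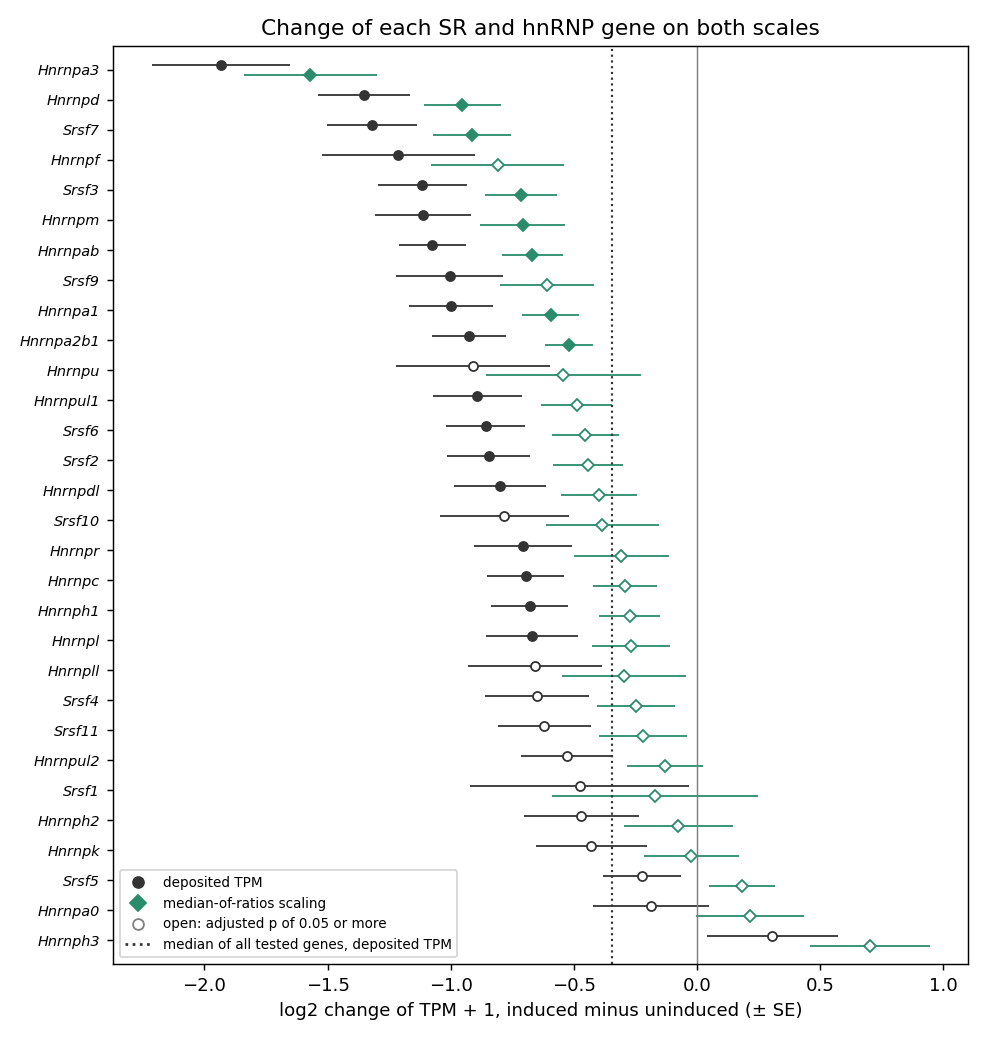
Log2 change of TPM + 1 (induced minus uninduced, with SE, n = 3 libraries each) of the 30 tested genes, as deposited (circles) and after median-of-ratios scaling (diamonds), filled where the limma adjusted p was under 0.05. Filled circles mark 18 genes and filled diamonds 8, and the dotted line at -0.35 is the median of all 13470 tested genes.

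Summed over its members, the SR family stood at 904, 1018 and 852 TPM without induction and 566, 518 and 571 TPM with it. The hnRNP sum was 2612, 2638 and 2084 TPM without induction and 1372, 1312 and 1474 TPM with it. Both sums lay lower in every induced library, at 0.597 and 0.567 of the uninduced mean. As a share of nuclear protein-coding TPM, the SR genes went from 0.311% ± 0.00869 to 0.252% ± 0.00576 and the hnRNP genes from 0.820% ± 0.0489 to 0.632% ± 0.00761 (SD, n = 3 each). The sums of both families overlapped in proportion, with hnRNP to SR ratios of 2.89, 2.59 and 2.44 in the uninduced and 2.42, 2.53 and 2.58 in the induced libraries. These sums are descriptions and were not tested.

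Several of these genes have processed pseudogenes, intronless copies that reads of the parent can match. Transcripts of 80 pseudogenes in the table aligned to 16 of the 31 genes with at least 90% identity. Reads of 100 bases from either end were sequenced, and over such a stretch a copy can be identical to its parent. A stretch of 100 bases of the Hnrnpa3 coding sequence (coding bases 101 to 200, GENCODE M21, build GRCm38, chr2) is shown in sense with the same stretch of its pseudogene Gm6363 on chr16, because a read within it matches several rows. The capital marks the base that differs from Hnrnpa3.
Hnrnpa3: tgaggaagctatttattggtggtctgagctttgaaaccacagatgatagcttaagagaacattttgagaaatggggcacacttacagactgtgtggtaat
Gm6363: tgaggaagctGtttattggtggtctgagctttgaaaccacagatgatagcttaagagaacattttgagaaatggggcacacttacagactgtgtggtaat
Gm6363 had 1 difference over this stretch, and the pseudogenes Gm12960, Gm6793 and Gm5641 on chr4, chr8 and chr3 had 0.

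For Hnrnpa3 the copies held most of the signal. Its 37 pseudogenes summed to 165, 167 and 116 TPM without induction and 72.5, 50.4 and 68.8 TPM with it, which was 88.6% of the gene and its copies in uninduced and 93.6% in induced cells. The copies lay lower in every induced library, as the gene itself did. With the copies added to the gene, a step chosen after seeing the data that sums TPM over rows of different length, the log2 change of Hnrnpa3 went from -1.93 to -1.29 (limma adjusted p 0.00446), and to -0.89 (limma adjusted p 0.0117) after scaling. A further row, the miRNA gene Gm24574, lies within Hnrnpa3 on the same strand and was at a mean of 38.0 and 8.47 TPM.

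Copies of Hnrnpa1 summed to 173, 194 and 148 TPM without induction and 74.0, 80.7 and 86.2 TPM with it, most of it in Gm10052. The gene and its copies together averaged 483 TPM uninduced, above Hnrnpa2b1 with its copy at 452 TPM. In induced libraries these means were close, at 234.8 TPM for Hnrnpa1 and 236.1 TPM for Hnrnpa2b1. With the copies the Hnrnpa1 change was -1.03 (limma adjusted p 0.00446), or -0.62 (limma adjusted p 0.0114) after scaling. Copies of Srsf3 summed to 53.4, 55.2 and 55.9 TPM without induction and 29.1, 20.3 and 22.9 TPM with it, and the change with them was -1.15 (limma adjusted p 0.00426), or -0.75 (limma adjusted p 0.0189) after scaling. In both genes the copies were lower in every induced library. The single copy of Srsf5 was at 78.9, 89.4 and 95.1 TPM without induction and 97.3, 75.5 and 64.4 TPM with it, overlapping between groups like its parent. Those of Hnrnpk, at 96.4, 121 and 77.6 TPM without induction and 76.0, 62.4 and 77.2 TPM with it, were lower in every induced library, by a narrow margin. With all copies added, 18 genes fell on the deposited scale and 8 after scaling, the same counts as without them.

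**Figure D4:**
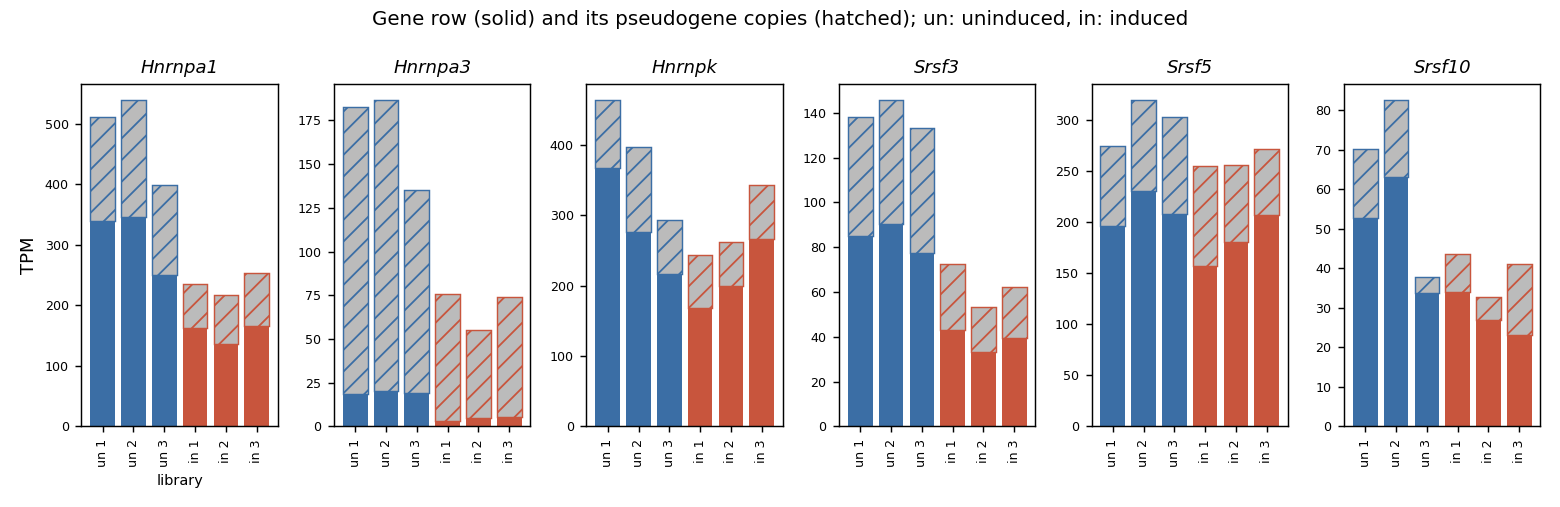
TPM of the gene row (solid) and of its pseudogene copies (hatched, stacked on it) in each of 3 uninduced (un) and 3 induced (in) libraries, for 6 genes with abundant copies, each panel with its own axis from 0. The copies make up most of the Hnrnpa3 bars, and the stacked bars of Hnrnpa1, Hnrnpa3 and Srsf3 are lower in every induced library.

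Decay-targeted transcripts, through which these families limit themselves, were counted in the annotation. In GENCODE M21, 19 of the 31 genes (61.3%) had at least 1 transcript annotated as a target of nonsense-mediated decay, among them 9 of 11 SR genes and 10 of 20 hnRNP genes, beside 30.5% of the 10566 tested protein-coding genes. A transcript with a retained intron was annotated for 22 of 31 genes (71.0%), beside 61.6%. The genes had a median of 7 annotated transcripts, beside 5. Since the table gives 1 value per gene, productive and decay-targeted transcripts were summed in it, and their proportions were not analysed here. Other genes overlap some of them on the opposite strand, such as Phykpl at Hnrnpab, Rufy2 at Hnrnph3, Cox20 at Hnrnpu and Mettl23 at Srsf2. The kit keeps strand, but the strand setting of the authors' counting is not given in the sources used here, so these values carry that uncertainty.

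The promoters were examined because many members moved together and because the fusion retains the DNA-binding domain of RUNX1. RefSeq promoter windows, 250 bases before to 50 after the gene start (GRCm38.p6), were found for 29 of the 31 genes, with 1 window taken per gene. The windows were rich in GC, with a median of 68.3% beside 52.7% over 27025 genes, and in CpG, with a median observed to expected ratio of 1.01 beside 0.389. Letters of a RUNX site, TGTGGT on either strand, occurred in 3 of 29 windows (10.3%), beside 16.9% of all windows. Letters of an ETS site, CCGGAAGT on either strand, occurred in 4 of 29 (13.8%), beside 4.0%. The matches upstream of the start are shown 5′ to 3′ on the gene's strand, with the matched letters in capitals, since they include both genes that fell and genes that were not called.
Hnrnpd, ETS letters, chr5:99979090-99979137, minus strand: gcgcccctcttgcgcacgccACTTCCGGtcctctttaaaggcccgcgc
Hnrnpf, ETS letters, chr6:117900270-117900317, plus strand: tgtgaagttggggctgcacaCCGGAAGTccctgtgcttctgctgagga
Srsf4, ETS letters, chr4:131873406-131873453, plus strand: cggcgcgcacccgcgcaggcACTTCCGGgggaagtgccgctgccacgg
Srsf5, ETS letters, chr12:80945388-80945435, plus strand: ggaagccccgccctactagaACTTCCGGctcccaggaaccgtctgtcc
Srsf5, ETS letters, chr12:80945456-80945498, plus strand: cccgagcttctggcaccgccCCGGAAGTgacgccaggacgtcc
Hnrnpf, RUNX letters, chr6:117900212-117900257, plus strand: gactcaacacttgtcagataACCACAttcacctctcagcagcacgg
Hnrnph1, RUNX letters, chr11:50376740-50376770, plus strand: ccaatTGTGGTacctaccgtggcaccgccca
The remaining RUNX match, in Hnrnpa0, lay outside the upstream part. CCAAT occurred in 16 windows (55.2%, beside 37.9%), the E2F letters TTTCCCGC or TTTGGCGC in 3 (10.3%, beside 1.63%), CACGTG in 4 (13.8%, beside 7.24%) and the NRF1 motif (GCGC, any base, TGCGC) in 3 (10.3%, beside 4.78%), each on either strand. The background for these shares was all windows, which are lower in GC. Windows of like GC were not compared, so the part of GC content in these differences was not tested. Of the 8 genes called on both scales, Hnrnpd alone is among those shown, and a match is a description of the letters and not of binding.

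The wider splicing machinery was examined with 8 lists of 132 genes in all, to place the SR and hnRNP genes among their partners. Of 127 genes tested 43 fell and 0 rose on the deposited scale, with a median log2 change of -0.65, where 10.2% of all tested genes were called lower. After scaling 5 were called lower and 2 higher, with a median of -0.26, where 3.1% of all tested genes were called lower and 2.88% higher, so these counts are near the background. The 5 lower were Raly, Snrpa, Sf3b3, Snrpd1 and Eftud2. Of the 7 Sm core proteins, the ring that binds the small nuclear RNAs, 5 fell on the deposited scale and 1 after scaling. The deposited median was -0.98 and the scaled one -0.59. Snrpd1 fell by 1.61 on the log2 scale (limma adjusted p 0.00185), from 91.8 ± 18.9 TPM uninduced to 29.0 ± 0.228 TPM induced (SD, n = 3 each), and its scaled change was -1.21 (adjusted p 0.00645). The ring subunit gene Snrpb fell by 1.23 on the log2 scale (limma adjusted p 0.0188), from 114 ± 24.2 TPM uninduced to 49.8 ± 19.0 TPM induced (SD, n = 3 each), and its scaled change was -0.82 (adjusted p 0.0715). Of the U1 and U2 particle proteins 10 of 21 fell on the deposited scale and 2 after scaling. The deposited median was -0.73 and the scaled one -0.34. The U1 protein gene Snrpa fell by 1.43 on the log2 scale (limma adjusted p 0.00565), from 69.9 ± 10.9 TPM uninduced to 25.7 ± 6.35 TPM induced (SD, n = 3 each), and its scaled change was -1.03 (adjusted p 0.0148). In the U2 particle, Sf3b3 fell by 1.17 on the log2 scale (limma adjusted p 0.00487), from 83.8 ± 9.44 TPM uninduced to 36.6 ± 3.67 TPM induced (SD, n = 3 each), and its scaled change was -0.77 (adjusted p 0.0344).

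Of 8 genes for hnRNP import and arginine methylation, 4 (Prmt1, Prmt3, Carm1 and Wdr77) fell on the deposited scale and 0 after scaling. The deposited median was -0.99 and the scaled one -0.60. Of the other methyltransferase genes, Prmt5 was not called (log2 change -0.93, limma adjusted p 0.072), nor was Prmt6, whose change was 0.75 (limma adjusted p 0.172) with every induced library above every uninduced one. The Prmt5 partner gene Wdr77 fell by 1.34 on the log2 scale (limma adjusted p 0.0171), from 25.0 ± 5.91 TPM uninduced to 9.21 ± 2.29 TPM induced (SD, n = 3 each), and its scaled change was -0.96 (adjusted p 0.0931). The methyltransferase gene Carm1 fell by 1.17 on the log2 scale (limma adjusted p 0.03), from 19.4 ± 0.511 TPM uninduced to 8.42 ± 3.17 TPM induced (SD, n = 3 each), and its scaled change was -0.79 (adjusted p 0.123). Of 9 tested genes of the SR kinase and import list 1 was called lower on the deposited scale, a share near the 10.2% of all tested genes, and 0 after scaling. The deposited median of -0.28 changed sign to 0.11 after scaling. Here Dyrk1a fell by 0.92 on the log2 scale (limma adjusted p 0.044), from 28.3 ± 5.38 TPM uninduced to 14.5 ± 3.09 TPM induced (SD, n = 3 each), and its scaled change was -0.53 (adjusted p 0.252). After scaling Clk1, a kinase of the SR tail, was called higher instead (0.59, limma adjusted p 0.0438), from a deposited change of 0.18 that did not pass. The difference between the kinase list and the others was not tested.

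The shares of protein-coding genes at 20 TPM or more that were called lower, 22.5% as deposited and 7.04% after scaling, are a background for the remaining lists, beside the 10.2% and 3.1% of all tested genes. Of the 19 genes for SR-related and exon junction proteins 7 fell on the deposited scale and 0 after scaling. The deposited median was -0.60 and the scaled one -0.20. The exon junction protein gene Pnn fell by 0.92 on the log2 scale (limma adjusted p 0.0314), from 55.0 ± 12.9 TPM uninduced to 28.3 ± 4.18 TPM induced (SD, n = 3 each), and its scaled change was -0.52 (adjusted p 0.133). The splicing regulator gene Rbm25 fell by 0.88 on the log2 scale (limma adjusted p 0.0129), from 79.6 ± 9.77 TPM uninduced to 42.6 ± 2.12 TPM induced (SD, n = 3 each), and its scaled change was -0.48 (adjusted p 0.0841). Of 30 other splicing regulators tested 8 fell on the deposited scale and 1 after scaling. The deposited median was -0.62 and the scaled one -0.23. The Hnrnpc relative Raly fell by 1.21 on the log2 scale (limma adjusted p 0.00368), from 112 ± 7.57 TPM uninduced to 48.0 ± 5.37 TPM induced (SD, n = 3 each), and its scaled change was -0.80 (adjusted p 0.0233). The Hnrnpr relative Syncrip fell by 1.09 on the log2 scale (limma adjusted p 0.0155), from 37.3 ± 2.22 TPM uninduced to 17.2 ± 3.67 TPM induced (SD, n = 3 each), and its scaled change was -0.70 (adjusted p 0.118). After scaling Rbm5 was called higher (0.86, limma adjusted p 0.0139). Of 23 tri-snRNP and Prp19 complex genes 5 fell on the deposited scale and 1 after scaling. The deposited median was -0.57 and the scaled one -0.17. The U5 protein gene Txnl4a fell by 1.25 on the log2 scale (limma adjusted p 0.0213), from 12.9 ± 1.11 TPM uninduced to 4.85 ± 1.03 TPM induced (SD, n = 3 each), and its scaled change was -0.89 (adjusted p 0.0891). The U5 GTPase gene Eftud2 fell by 1.16 on the log2 scale (limma adjusted p 0.00769), from 51.5 ± 6.64 TPM uninduced to 22.5 ± 2.97 TPM induced (SD, n = 3 each), and its scaled change was -0.76 (adjusted p 0.0287). Of the 10 nonsense-mediated decay genes 3 fell on the deposited scale and 0 after scaling. The deposited median was -0.49 and the scaled one -0.098. The counts of the other splicing regulators and of the tri-snRNP and decay lists are near the shares at 20 TPM or more. The decay effector gene Smg5 fell by 1.11 on the log2 scale (limma adjusted p 0.0143), from 24.2 ± 1.77 TPM uninduced to 10.7 ± 1.07 TPM induced (SD, n = 3 each), and its scaled change was -0.72 (adjusted p 0.0836). The exon junction adaptor gene Upf3b fell by 0.99 on the log2 scale (limma adjusted p 0.0328), from 23.1 ± 3.60 TPM uninduced to 11.2 ± 2.08 TPM induced (SD, n = 3 each), and its scaled change was -0.60 (adjusted p 0.173).

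**Figure D5:**
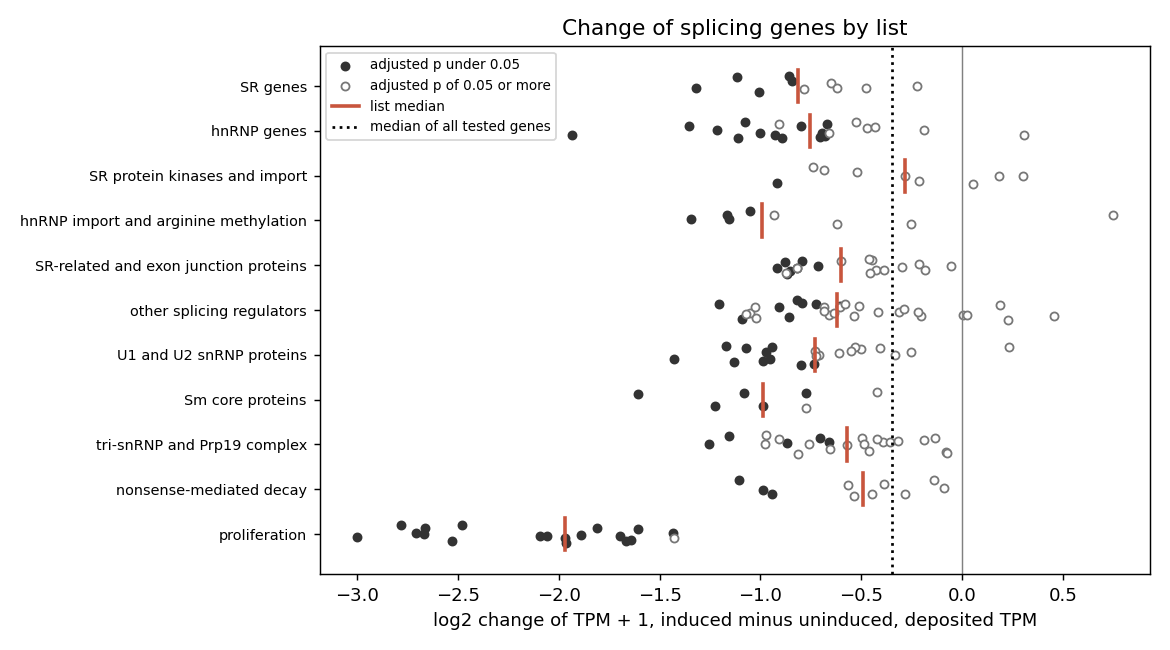
Log2 change of TPM + 1 (induced minus uninduced, deposited TPM) of each tested gene of the SR and hnRNP families, of 8 lists of splicing genes and of the proliferation markers, with filled points where the limma adjusted p was under 0.05, a bar at the list median and a dotted line at the median of all tested genes (-0.35). The medians of the SR and hnRNP genes, -0.81 and -0.75, lie below that line and above the median of the proliferation markers, -1.97.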

How the data were processed

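Total RNA libraries of sorted stem cells were compared, 3 uninduced and 3 induced, grouped by library title. The values were TPM, which the authors deposited as 1 table, each library a column. Per the submitters' processing notes the tools were bcl2fastq, HISAT2, StringTie and DESeq2 and the build GRCm38, with no roles or versions. The annotation release, strand setting and read filters are not given in the sources used here. The deposited table also lists GC content as a percent, not used here. TPM keeps no depth, so no counting interval is given, and the number of libraries limits the precision. Of 60496 rows in the table, 5025 carry a gene ID that another row has. Such rows were added up, and 0 of the 31 genes had any.

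The 13470 genes whose mean over the 6 libraries reached 1 TPM were tested with limma 3.58.1 (R 4.3.3) on log2(TPM + 1) (variance trend, two-sided, Benjamini-Hochberg). Fold changes on this scale understate changes of low genes. On simulated data for this comparison with 13470 genes, 94% of genes changed by 2 log2 units and 36% of those changed by 1 were recovered, with 6.47% false calls. The simulation changed 200 genes, up or down, without an offset between the groups, and gave 139 calls. The data have an offset and gave 1549 calls, so these rates need not hold for them. Positions and transcript kinds came from GENCODE M21 (GRCm38), and all 31 gene IDs and symbols matched. Pseudogene copies were found with blastn 2.17.0 (at least 90% identity, 50% of the copy and 200 bases). Promoters came from RefSeq. The genes, lists and tests were chosen with earlier results of these data known.

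Genes called on either scale are named with every library's value, as are Srsf1, Srsf5, Hnrnpk, Hnrnpll and Hnrnpu (known roles or level), Srsf12 (below the filter) and those said to be named for their values. The other 5 members have their log2 changes only. For the lists, the 2 called genes of largest change are named, and any others named were chosen after their values were seen. Alternatives tried were median-of-ratios scaling, rescaling to nuclear protein-coding genes, pseudocounts of 0.1 and 5, filtering at 5 TPM or not at all, no variance trend, a block for replicate number and fits that left out 1 library. Adding pseudogene copies, alone or with median-of-ratios scaling, was added after seeing the data.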

Additional observations from a re-analysis of the deposited data

How the results depend on the processing

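The 18 SR and hnRNP genes called lower became 8 under median-of-ratios scaling, 8 after rescaling to nuclear protein-coding genes, 6 without the variance trend (Hnrnpa1 and Hnrnpa2b1 among those lost) and 8 with pseudogene copies and median-of-ratios scaling. Leaving out a library gave 9 (without induced replicate 2) to 19 (without uninduced replicate 3), and 10, 11 and 10 without induced replicate 1, uninduced replicate 1 and uninduced replicate 2. No setting called a member higher, a count of 0, with 1 member (Hnrnph3) higher at an unadjusted p under 0.05 after median-of-ratios scaling and 0 as deposited. The 43 pathway genes became 20 without the expression filter, 7 (2 higher, 5 lower) and 12 (2 higher, 10 lower) under the 2 scalings, 10 without the trend and 13 to 36 without a library (36 without uninduced replicate 3, at most 23 without any other). All 1549 calls became 752 without the filter, 806 (388 higher, 418 lower) and 944 (465 and 479) under the scalings, 767 without the trend and 573 to 1198 without a library (1198 without uninduced replicate 3, at most 833 without any other).

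With the replicate block 13 members were called, 18 pathway genes and 902 genes in all. Hnrnpc, Hnrnpdl, Hnrnph1, Hnrnpl and Hnrnpr lost their call (adjusted p 0.0625 to 0.0857). The labels tie same-numbered libraries by number alone. Their deviations correlated by 0.0078 on average, and 3 of 6 libraries correlated best with their own number. These values do not settle whether same-numbered libraries share a batch.

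Hnrnpa0 reversed to 0.21 and 0.24 under the scalings, 0.21 with copies and scaling, and 0.0068 without uninduced replicate 2 (-0.42 to 0.0068 without a library). Srsf5 reversed to 0.18 and 0.21, and to 0.21 with copies and scaling, and Hnrnpk to 0.0070 after rescaling to protein-coding genes. The log2 change of the SR sum, -0.74, was -0.33 and -0.30 under the scalings and -0.80 to -0.67 without a library. That of the hnRNP sum, -0.81, was -0.40 and -0.37, and -0.92 to -0.75. The Srsf1 to Hnrnpa1 ratio, 0.41 on the log2 scale, ranged from -0.064 (without uninduced replicate 1) to 0.85, and the hnRNP to SR ratio from -0.12 to -0.0034. Each scaling takes out the offset of the deposited scale by construction and does not show where it came from. The cause of the offset and of the other differences was not tested. The depth of the libraries is unknown, so what it limits cannot be given.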
